A study of Arabidopsis thaliana with 36 samples.

Results

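The genes described here are the 3 gibberellin receptor genes of Arabidopsis thaliana, GID1A, GID1B and GID1C, and the 5 DELLA genes GAI, RGA, RGL1, RGL2 and RGL3. They were chosen by gene identity, as 8 of the 33602 rows of the deposited gene count tables. All 8 had enough reads to be tested, among 20126 genes that did. The study sequenced RNA of cotyledons (seed leaves) and hypocotyls (the stem below them) of Col-0 wild-type seedlings, dissected after fixation. Seedlings grown for 5 days at 21°C under 16 h of light and 8 h of darkness were moved to light with a low ratio of red to far-red (low R/FR, a simulated canopy shade). Others remained in high R/FR. Both organs were taken after 15, 45, 90 and 180 min in low R/FR and in high R/FR, and at 0 min in high R/FR, in 18 groups of 2 libraries. Each library pooled 50 seedlings of 1 plate, and no label records separate days or cultures, so p-values measure the spread between these samples.

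Gibberellin acts by removing repressors. A GID1 receptor that holds the hormone binds the N-terminal part of a DELLA protein. The F-box protein SLY1 or its relative SNE then marks the DELLA for destruction by the proteasome. DELLA proteins bind transcription factors, among them the phytochrome-interacting factors PIF3 and PIF4, and restrain growth. Elongation of the hypocotyl in shade is known to need gibberellin, and DELLA protein falls in shade. Transcripts of receptors, repressors and gibberellin synthesis enzymes are also under feedback from the hormone: in this species low gibberellin signalling is known to raise GID1 and GA20OX transcripts.

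The contact with the receptor depends on a short motif that gave the DELLA family its name. The lines show the coding strand around it, 60 bases for each gene, read from the RefSeq TAIR10.1 genome and its annotation, with the 5 motif codons in capitals. They are shown because this stretch takes part in the contact between the products of both gene families.
GAI: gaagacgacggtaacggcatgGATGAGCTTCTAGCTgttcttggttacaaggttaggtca
RGA: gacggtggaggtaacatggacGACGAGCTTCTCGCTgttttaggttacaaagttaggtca
RGL1: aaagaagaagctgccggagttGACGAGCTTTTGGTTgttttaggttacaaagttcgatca
RGL2: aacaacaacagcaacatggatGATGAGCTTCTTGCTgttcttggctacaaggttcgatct
RGL3: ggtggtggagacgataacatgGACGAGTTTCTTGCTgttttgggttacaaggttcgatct
GAI, RGA and RGL2 encode the canonical 5 residues, and RGL1 and RGL3 each differ from them at 1 of 5. The motif begins at codon 28 in GAI, 44 in RGA, 32 in RGL1, 44 in RGL2 and 34 in RGL3.

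The deposited TAIR10 coordinates put GID1A (AT3G05120) on chromosome 3 from 1430471 to 1432778, GID1B (AT3G63010) on chromosome 3 from 23289425 to 23291486 and GID1C (AT5G27320) on chromosome 5 from 9629087 to 9631210, all on the plus strand. GAI (AT1G14920) lies on chromosome 1 from 5149226 to 5151354 and RGL1 (AT1G66350) on chromosome 1 from 24748195 to 24750043, both on the plus strand. RGA (AT2G01570) lies on chromosome 2 from 255249 to 257550, RGL2 (AT3G03450) on chromosome 3 from 819337 to 821406 and RGL3 (AT5G17490) on chromosome 5 from 5764063 to 5766077, all on the minus strand. The RefSeq annotation gives each GID1 gene 2 exons and each DELLA gene 1, and none of the 8 overlaps another annotated gene. GID1A and GID1C share 83.1% of aligned coding nucleotides and are the closest pair. GAI and RGA share 74.7%, RGL2 and RGL3 71.6%, and RGA and RGL1, the least alike, 59.2%.

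The hypocotyl libraries held 23560273 to 34231167 gene counts and the cotyledon libraries 24897594 to 45115165. The treatment was visible in the shade marker genes PIL1, ATHB2 and HFR1, whose summed level was 173 to 707 CPM in low R/FR and 35 to 57.1 CPM in high R/FR in hypocotyl, and 161 to 699 CPM in low R/FR and 13.7 to 33.5 CPM in high R/FR in cotyledon. CPM are counts per 1000000 of a library size that was normalised with edgeR's TMM method. Summed markers of mesophyll stood at 14000 to 23500 CPM in hypocotyl and 67400 to 88700 CPM in cotyledon, and those of the stomatal lineage at 1.07 to 2.91 CPM in hypocotyl and 36.1 to 55.5 CPM in cotyledon. Summed root markers stayed at or under 0.479 CPM in hypocotyl and 0.181 CPM in cotyledon, where RHD6, PLT1, PLT2 and WOX5 had no counts, and shoot apex markers at 0.789 to 1.98 CPM in hypocotyl and at most 0.0492 CPM in cotyledon. In bulk libraries of this kind, fewer cells of a type and less RNA per cell cannot be told apart.

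In the hypocotyl, 4 of the 5 DELLA genes were higher in low than in high R/FR of the same time, 3 of them from 45 min on. Receptor genes were lower in low than in high R/FR at 90 and 180 min. At 90 min GAI, RGA, RGL1 and RGL3 were higher and all 3 GID1 genes lower than in high R/FR at the same time. At 180 min GAI, RGA, RGL1 and RGL3 were still higher, and GID1A and GID1C lower. The counts of members called at an adjusted p under 0.05 (edgeR quasi-likelihood test, Benjamini-Hochberg over all genes of the comparison) were 0, 3, 7 and 6 of 8 at 15, 45, 90 and 180 min. Of all genes tested, 0.179, 3.31, 37.6 and 63.8% were called at those times, so at 180 min the members' share lies near that of all genes. By direction, the genes called higher were 0.159, 2.09, 19.1 and 31.2% of all tested, and those called lower 0.0199, 1.22, 18.5 and 32.6%. At 15 min 2 members had an unadjusted p under 0.05, and DESeq2 called 1 and limma-voom 0. The median log2 change over the 8 members was 0.06, 0.1, 0.27 and 0.37, beside -0.002, 0, -0.016 and -0.039 over all genes. Of the 4 mesophyll markers 2 were lower at 90 min and all 4 at 180 min, when their sum was 14000 to 14200 CPM in low R/FR and 21000 to 23500 CPM in high R/FR. Summed vascular markers at 90 min stood at 249 to 256 CPM in low R/FR and 184 to 194 CPM in high R/FR, with 1 of 5 higher and 1 lower. At 180 min, when 3 of the 5 were lower, they stood at 146 to 149 CPM in low R/FR and 212 to 216 CPM in high R/FR, and summed endodermis markers at 64.4 to 69 CPM in low R/FR and 108 to 131 CPM in high R/FR. The part of these markers in the results was not tested.

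**Figure D1:**
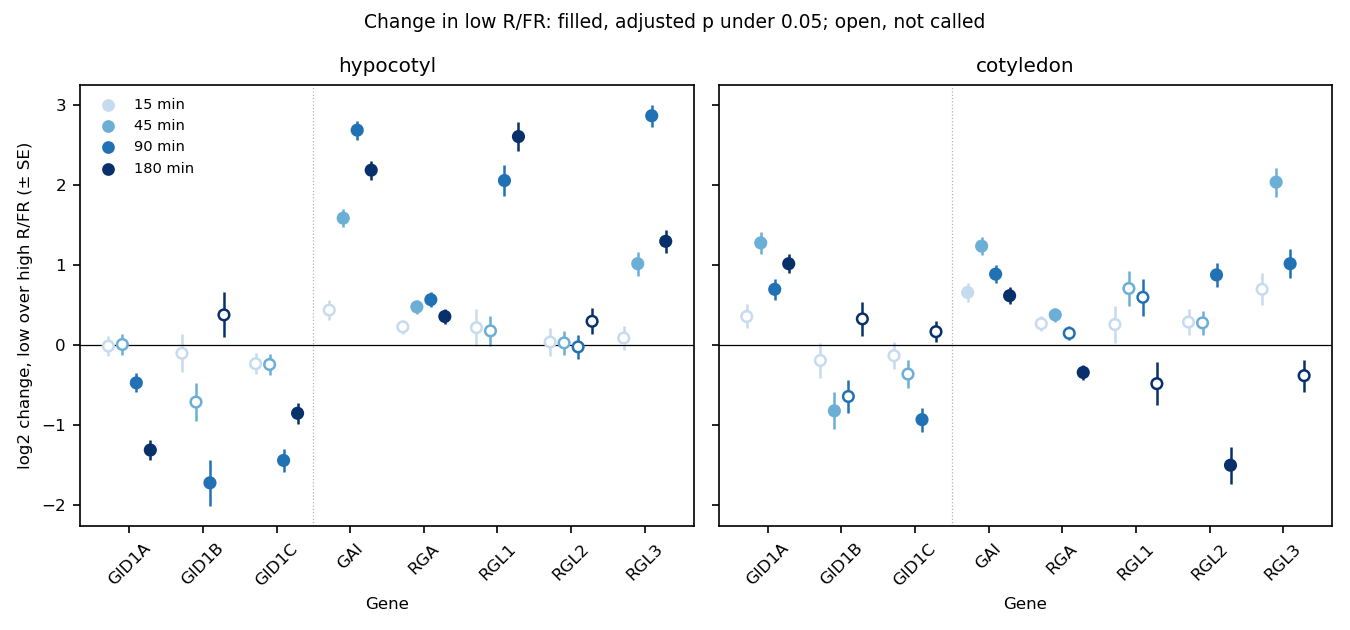
Log2 change of each GID1 and DELLA gene in low over high R/FR (vertical axis, ± SE, 2 libraries per group) at 15, 45, 90 and 180 min (light to dark blue), in hypocotyl (left) and cotyledon (right). The SE comes from the fit over all 36 libraries and is not the spread of each pair. Filled points have an adjusted p under 0.05; in hypocotyl the DELLA points reach 2.87 (RGL3, 90 min) and the receptor points -1.72 (GID1B, 90 min).

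GAI, one of the pair of DELLA genes best known for restraining stem growth, had the broadest response. In hypocotyl it had 91.1 and 95.6 CPM in low R/FR at 45 min, against 33.5 and 28.6 CPM in high R/FR. It had 166 and 169 CPM in low R/FR at 90 min, against 26.3 and 25.8 CPM in high R/FR, and 156 and 184 CPM in low R/FR at 180 min, against 35 and 39.4 CPM in high R/FR. Both low R/FR libraries lay far above both high R/FR libraries at each of these times. The log2 changes were 1.59 ± 0.11 at 45 min (SE, adjusted p = 4.4e-11), 2.69 ± 0.12 at 90 min (adjusted p = 7.76e-17) and 2.19 ± 0.12 at 180 min (adjusted p = 1.1e-15). The rise at 90 min was 6.44-fold. The response grew by 1.1 ± 0.16 between 45 and 90 min (adjusted p = 5.04e-06) and shrank by 0.49 between 90 and 180 min (log2 change -0.49 ± 0.16, adjusted p = 0.0126), a call lost with only the hypocotyl libraries in the fit (-0.48, adjusted p = 0.0739). At 15 min GAI had 39.9 and 26.2 CPM in low R/FR and 23.4 and 25.1 CPM in high R/FR, a log2 change of 0.44 ± 0.12 that was not called (adjusted p = 0.197). Without low R/FR replicate 3, the lower of its pair, it was called with 0.73 (adjusted p = 8.75e-05).

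In cotyledon GAI was the one member called at every time, and at 15 min the only one. It had 76.9 and 69.3 CPM in low R/FR and 46.6 and 46 CPM in high R/FR at 15 min, and 134 and 141 CPM in low R/FR and 57.2 and 59.3 CPM in high R/FR at 45 min. At 180 min it still had 96.4 and 102 CPM in low R/FR, against 63.7 and 65.1 CPM in high R/FR. The groups did not overlap at any time. The log2 changes were 0.66 ± 0.12 (adjusted p = 0.003), 1.24 ± 0.11 (adjusted p = 3.61e-09), 0.89 ± 0.11 (adjusted p = 8e-07) and 0.62 ± 0.11 (adjusted p = 0.000127) at 15, 45, 90 and 180 min. The call at 15 min was lost without high R/FR replicate 1, high R/FR replicate 2 or low R/FR replicate 1, with adjusted p of 0.0882, 0.0911 and 0.145.

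RGA, the other gene of that pair, had the highest level per RefSeq exonic length of the 5 DELLA genes in 17 of the 18 groups, and its changes were small. In hypocotyl in low R/FR at 180 min, where RGA averaged 173 and GAI 170 CPM, that rank depends on the lengths used. In hypocotyl RGA had 199 and 190 CPM in low R/FR and 148 and 132 CPM in high R/FR at 45 min, and 205 and 201 CPM in low R/FR and 132 and 140 CPM in high R/FR at 90 min. At 180 min it had 168 and 178 CPM in low R/FR and 128 and 142 CPM in high R/FR. The ranges did not overlap, and the log2 changes were 0.48 ± 0.09 (adjusted p = 0.000961), 0.57 ± 0.09 (adjusted p = 6.09e-06) and 0.36 ± 0.09 (adjusted p = 0.000992). In cotyledon the direction turned with time. RGA rose at 45 min, with 183 and 162 CPM in low R/FR against 139 and 125 CPM in high R/FR (0.38 ± 0.09, adjusted p = 0.011), and fell at 180 min, with 99.4 and 78.1 CPM in low R/FR against 113 and 111 CPM in high R/FR (-0.34 ± 0.09, adjusted p = 0.00897). The call of the fall was lost with scaling by library totals alone (-0.27), with only the cotyledon libraries in the fit (-0.29), and without low R/FR replicate 2 (-0.17, adjusted p = 0.295) or high R/FR replicate 1 (-0.32, adjusted p = 0.0615). That of the rise was lost without high R/FR replicate 2 (0.31, adjusted p = 0.227) or low R/FR replicate 1 (0.29, adjusted p = 0.0824). In hypocotyl the call at 45 min was lost without high R/FR replicate 2 (adjusted p = 0.0917), and that at 180 min without high R/FR replicate 2 (adjusted p = 0.177) or low R/FR replicate 3 (adjusted p = 0.105).

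RGL1, a DELLA gene best known from flowers and seeds, responded late and in the hypocotyl. It had 7.98 and 8.19 CPM in low R/FR and 7.61 and 6.65 CPM in high R/FR at 45 min (0.18 ± 0.19, adjusted p = 0.858). At 90 min it had 23.9 and 28.3 CPM in low R/FR and 6.65 and 5.84 CPM in high R/FR, and at 180 min 49.4 and 54 CPM in low R/FR and 7.98 and 8.97 CPM in high R/FR. The low R/FR libraries were higher at 180 than at 90 min, while no high R/FR library of any time passed 8.97 CPM. The log2 changes were 2.06 ± 0.19 (adjusted p = 7.58e-10) and 2.61 ± 0.18 (adjusted p = 1.97e-12), a 6.11-fold rise at 180 min. In cotyledon it was not called at any time. Its values there at 45 min were 9.29 and 9.51 CPM in low R/FR and 6.47 and 5.02 CPM in high R/FR (0.71 ± 0.22, adjusted p = 0.0751), a difference that passed with DESeq2 and with only the cotyledon libraries in the fit.

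RGL3, a DELLA gene also known as a target of jasmonate signalling, rose and receded within the time course in both organs. In hypocotyl it had 9.7 and 9.12 CPM in low R/FR at 45 min, against 4.72 and 4.57 CPM in high R/FR (1.02 ± 0.15, adjusted p = 1.48e-05). It had 30.5 and 34.3 CPM in low R/FR at 90 min, against 4.37 and 4.48 CPM in high R/FR, which was the largest change of any member in any light comparison (2.87 ± 0.14, 7.32-fold, adjusted p = 4.12e-16). At 180 min it had 14.5 and 17.4 CPM in low R/FR, against 5.86 and 7.1 CPM in high R/FR (1.3 ± 0.14, adjusted p = 2.08e-09). The response at 180 min was smaller than at 90 min by a log2 difference of -1.57 ± 0.2 (adjusted p = 1.96e-07). In cotyledon the highest level came at 45 min, with 8.8 and 10 CPM in low R/FR and 2.49 and 2.07 CPM in high R/FR (2.04 ± 0.18, adjusted p = 1.09e-09). There it stood at 1.02 ± 0.18 at 90 min (adjusted p = 0.000138) and at -0.38 ± 0.2 at 180 min (adjusted p = 0.211).

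RGL2, known above all for restraining seed germination, changed in cotyledon. At 90 min it had 13.4 and 13 CPM in low R/FR and 6.37 and 7.91 CPM in high R/FR (0.88 ± 0.15, adjusted p = 5.74e-05). At 180 min it had 1.08 and 1.28 CPM in low R/FR and 3.7 and 3 CPM in high R/FR (-1.5 ± 0.23, adjusted p = 1.05e-05). It thus lay above high R/FR at one time and below it at the next, and the difference between the responses was -2.37 ± 0.27 (adjusted p = 1.14e-06). In hypocotyl its log2 change lay between -0.02 ± 0.15 and 0.3 ± 0.16, with 5.28 and 5.56 CPM in low R/FR and 5.25 and 5.73 CPM in high R/FR at 90 min, and it was not called at any time. With only the hypocotyl libraries in the fit it passed at 180 min (0.32, adjusted p = 0.0495).

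**Figure D2:**
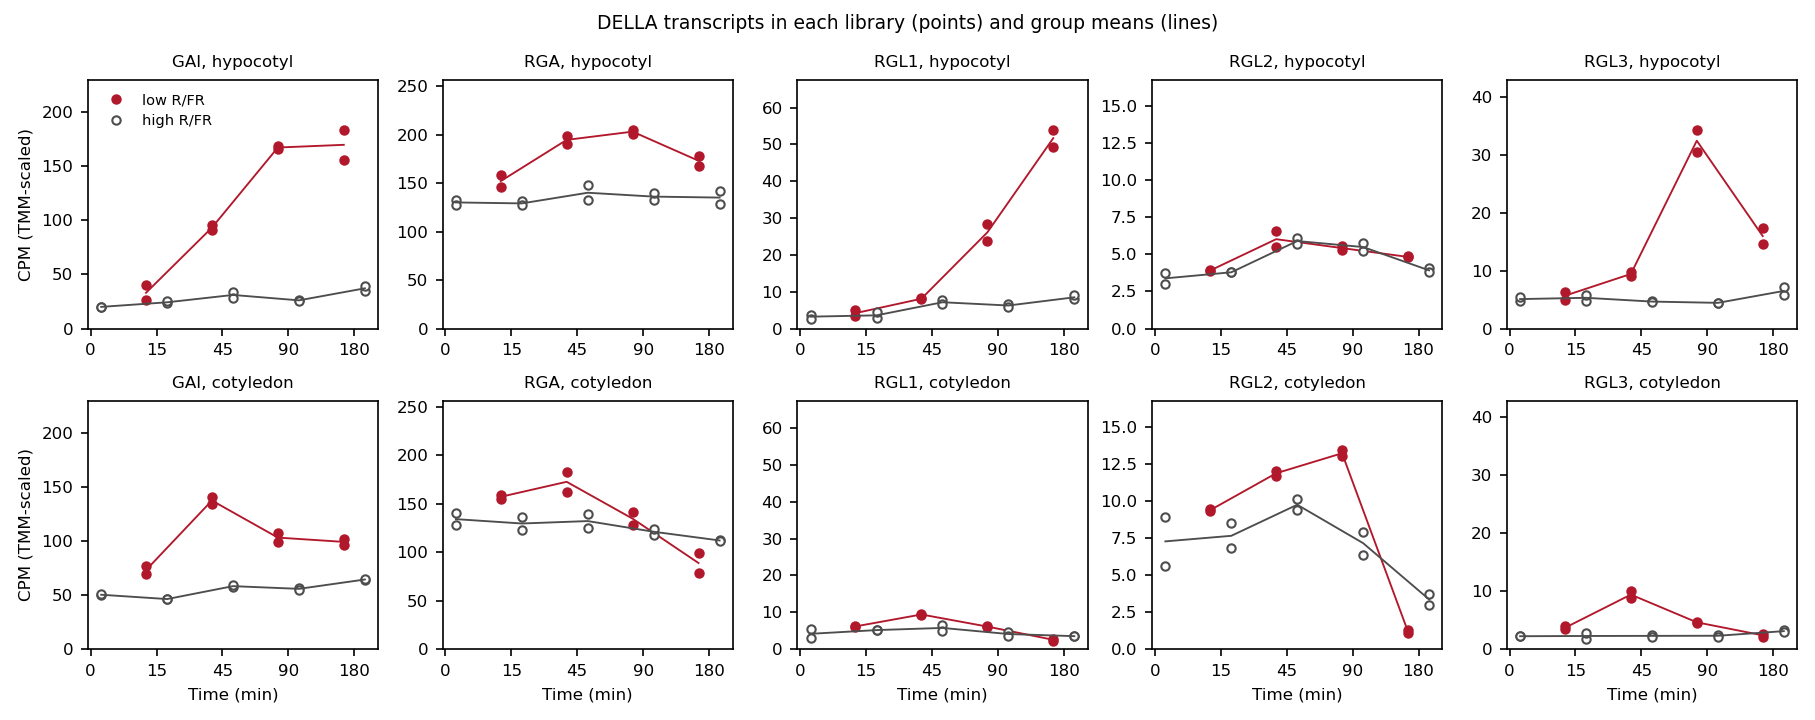
CPM of the 5 DELLA genes (columns) in hypocotyl (upper row) and cotyledon (lower row) against time in min, in low R/FR (red, filled) and high R/FR (grey, open); points are libraries, lines join means of 2, each gene has its own vertical scale, and the times are evenly spaced along the axis. In hypocotyl GAI reaches 156 to 184 CPM and RGL1 49.4 to 54 CPM at 180 min in low R/FR, while RGL3 is highest at 90 min, at 30.5 to 34.3 CPM.

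GID1A encodes one of 3 receptors whose functions overlap, and mutants that lack it together with GID1C are known to be dwarfed. At 90 and 180 min its response to low R/FR had opposite signs in the organs. In hypocotyl it had 5.74 and 6.56 CPM in low R/FR at 180 min, against 15.3 and 15.1 CPM in high R/FR (-1.31 ± 0.12, adjusted p = 1.92e-10), and 7.81 and 7.82 CPM in low R/FR at 90 min, against 9.98 and 11.7 CPM in high R/FR (-0.47 ± 0.12, adjusted p = 0.00244). In cotyledon it had 12.1 and 10.7 CPM in low R/FR at 45 min, against 4.43 and 4.97 CPM in high R/FR (1.28 ± 0.14, adjusted p = 1.43e-07), and 20.1 and 19.4 CPM in low R/FR at 180 min, against 9.25 and 10.3 CPM in high R/FR (1.02 ± 0.12, adjusted p = 2.46e-07). No libraries overlapped in these 4 comparisons. In hypocotyl at 45 min the lights overlapped, with 7.3 and 6.59 CPM in low R/FR and 6.27 and 7.52 CPM in high R/FR (0.01 ± 0.13, adjusted p = 0.996). From 45 to 180 min the hypocotyl mean went from 6.89 to 15.2 CPM in high R/FR and from 6.95 to 6.15 CPM in low R/FR. The response of the hypocotyl minus that of the cotyledon was -1.27 ± 0.19 at 45 min (adjusted p = 0.000204), -1.18 ± 0.18 at 90 min (adjusted p = 6.91e-06) and -2.32 ± 0.17 at 180 min (adjusted p = 6.71e-12).

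GID1C was lower in low R/FR at 90 min in both organs. It had 4.41 and 4.56 CPM in low R/FR and 12.6 and 11.8 CPM in high R/FR in hypocotyl (-1.44 ± 0.14, adjusted p = 4.82e-10), and 4.38 and 3.58 CPM in low R/FR and 7.53 and 7.62 CPM in high R/FR in cotyledon (-0.93 ± 0.15, adjusted p = 4.88e-05). At 180 min the hypocotyl still had 6.7 and 7.16 CPM in low R/FR, against 12.7 and 12.3 CPM in high R/FR (-0.85 ± 0.13, adjusted p = 1.54e-06). The cotyledon at that time had 13.7 and 10.8 CPM in low R/FR and 10.3 and 11.6 CPM in high R/FR, ranges that overlapped (0.17 ± 0.13, adjusted p = 0.434). The cotyledon response had shifted up by 1.1 ± 0.2 between 90 and 180 min (adjusted p = 0.000769).

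GID1B had few reads, 14 to 177 counts per library, and its changes carry the widest errors of the members in hypocotyl. In hypocotyl at 90 min it had 0.534 and 0.389 CPM in low R/FR, against 1.79 and 1.29 CPM in high R/FR (-1.72 ± 0.29, adjusted p = 1.41e-05). At 180 min it had 1.29 and 0.745 CPM in low R/FR, against 0.681 and 0.903 CPM in high R/FR, overlapping ranges (0.38 ± 0.28, adjusted p = 0.245), and the shift between these responses was 2.11 ± 0.41 (adjusted p = 0.000105). In cotyledon at 45 min it had 2.3 and 2.08 CPM in low R/FR, against 4.25 and 3.49 CPM in high R/FR (-0.82 ± 0.23, adjusted p = 0.0391). That call was lost without high R/FR replicate 1 (-0.67, adjusted p = 0.381), high R/FR replicate 2 (-0.95, adjusted p = 0.0624) or low R/FR replicate 2 (-0.75, adjusted p = 0.309). At 90 min in cotyledon GID1B stood at -0.64 ± 0.21 (adjusted p = 0.0503).

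**Figure D3:**
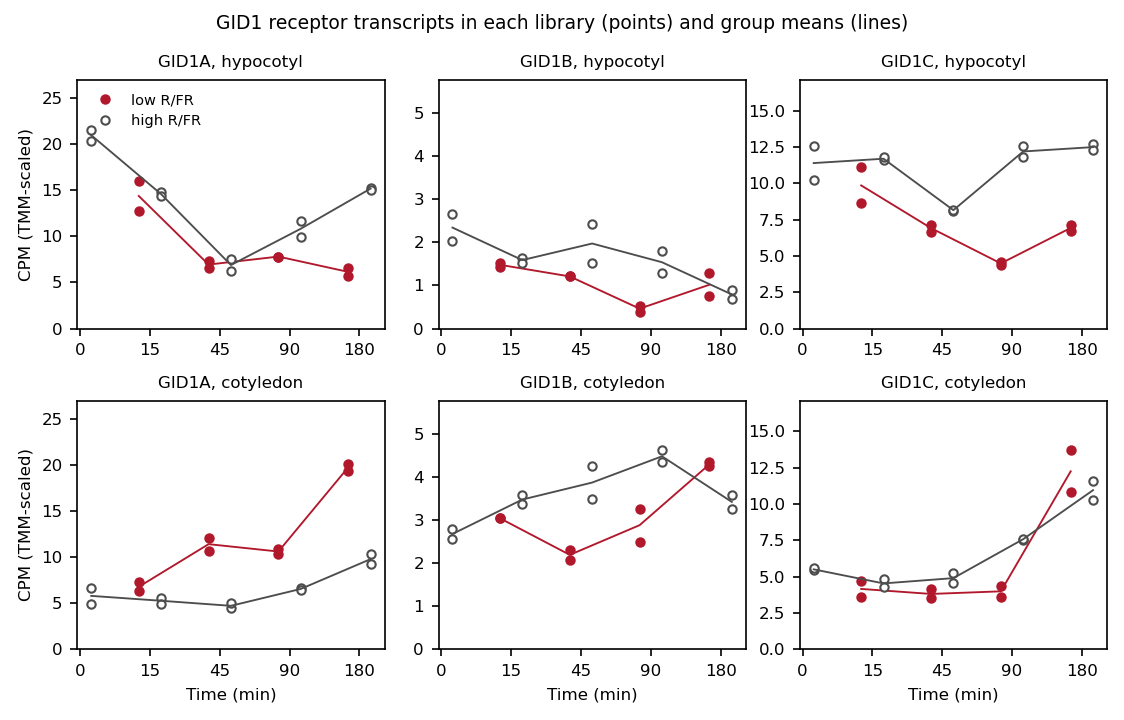
CPM of the 3 GID1 genes (columns) in hypocotyl (upper row) and cotyledon (lower row) against time in min, in low R/FR (red, filled) and high R/FR (grey, open); points are libraries, lines join means of 2, each gene has its own vertical scale, and the times are evenly spaced along the axis. GID1A at 180 min in low R/FR is at 5.74 to 6.56 CPM in hypocotyl and 19.4 to 20.1 CPM in cotyledon, below high R/FR in the first and above it in the second.

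In cotyledon, 1, 5, 5 and 4 of the 8 members were called at 15, 45, 90 and 180 min, where 0.219, 3.62, 10.8 and 19.5% of all genes were. Higher calls made up 0.219, 2.31, 4.41 and 8.02% of all genes and lower calls 0, 1.31, 6.35 and 11.5%. The median log2 change of the members was 0.28, 0.54, 0.65 and -0.09, beside 0.011, -0.001, -0.017 and -0.016 over all genes. At 45 min GID1A, GAI, RGA and RGL3 were higher and GID1B lower. At 90 min GID1A, GAI, RGL2 and RGL3 were higher and GID1C lower. At 180 min GID1A and GAI were higher, and RGA and RGL2 lower. Summed mesophyll markers in cotyledon at 180 min stood at 73300 to 85000 CPM in low R/FR and 80500 to 81400 CPM in high R/FR, overlapping ranges. Summed vascular markers there were at 170 to 178 CPM in low R/FR and 207 to 230 CPM in high R/FR, without overlap, and 2 of the 5 were lower. Their part in the results was not tested.

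The organs' responses were compared directly by the difference of their log2 changes, hypocotyl minus cotyledon. It was called for 0, 2, 7 and 7 of the 8 members at 15, 45, 90 and 180 min, beside 0.0149, 0.696, 21.4 and 46.5% of all genes. Positive differences were 0, 0.293, 12.2 and 23.7% of all genes and negative ones 0.0149, 0.402, 9.12 and 22.8%. At 15 min 1 member had an unadjusted p under 0.05, and DESeq2 and limma-voom also called 0. At 45 min both called members, GID1A and RGL3, responded more strongly in cotyledon, with RGL3 at -1.02 ± 0.24 (adjusted p = 0.028). At 90 min the order of RGL3 was turned round, at 1.86 ± 0.23 (adjusted p = 2.56e-07), and GAI stood at 1.8 ± 0.16 (adjusted p = 5.49e-10). At 180 min the difference was positive for all 5 DELLA genes, from 0.7 ± 0.13 for RGA (adjusted p = 5.05e-05) to 3.09 ± 0.33 for RGL1 (adjusted p = 1.47e-08). For RGA the log2 change was 0.36 in hypocotyl and -0.34 in cotyledon, and for RGL2 it was 0.3 (not called) in hypocotyl and -1.5 in cotyledon. The difference was negative for GID1A and GID1C, at -2.32 ± 0.17 and -1.02 ± 0.19 (adjusted p = 6.71e-12 and 3.93e-05). The call of RGL3 at 45 min was lost with limma-voom and without any of 7 of the 8 libraries compared, the exception being cotyledon low R/FR replicate 1. That of RGA at 90 min (0.42) was lost with scaling by library totals alone (0.35) and without any of the 4 hypocotyl libraries or replicate 2 of either light in cotyledon, with values of 0.33 to 0.4. That of GID1B at 90 min (-1.08) was lost with limma-voom, without replicate 1 of high R/FR or 2 of low R/FR in hypocotyl, and without replicate 1 or 2 of high R/FR or 1 of low R/FR in cotyledon, with values of -1.13 to -0.88.

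Within an organ, the change of the response between successive times was called for 1 member in cotyledon from 45 to 90 min and 4 from 90 to 180 min, beside 2.3 and 5.23% of all genes (0.725 and 2.63% shifted up, 1.57 and 2.6% down). In hypocotyl it was called for 4 and 5 members, beside 20.7 and 43.7% (11.4 and 20.4% up, 9.37 and 23.3% down). Between 45 and 90 min in hypocotyl, GAI, RGL1 and RGL3 shifted up by 1.1 ± 0.16, 1.88 ± 0.27 and 1.85 ± 0.2, and GID1C down, at -1.21 ± 0.19 (adjusted p from 3.57e-08 to 1.56e-05). The single call in cotyledon from 45 to 90 min, RGL3 at -1.02 ± 0.26 (adjusted p = 0.0276), was lost with limma-voom, with only the cotyledon libraries in the fit and without any of 6 of the 8 libraries compared, the exceptions being low R/FR 45 min replicate 1 and high R/FR 90 min replicate 2.

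Levels per RefSeq exonic length compare the transcript that each DELLA gene supplied. Summed over the 5 DELLA genes, the hypocotyl held 133, 185 and 178 CPM per kb of exon in low R/FR at 45, 90 and 180 min, against 81, 76.7 and 82 in high R/FR (means of 2 libraries). The 2 libraries of low R/FR lay at 132 and 134, 184 and 187, and 168 and 188, and those of high R/FR at 76.2 and 85.7, 75.1 and 78.2, and 77.6 and 86.4. Both lights were well apart from 45 min on. RGA made up 41.8% of that sum in low R/FR at 180 min and 70.8% in high R/FR, GAI 39.1% in low R/FR and 18.6% in high R/FR, and RGL1 13.9% in low R/FR and 4.96% in high R/FR. The RefSeq lengths are 2434 bases for GAI and 2322 for RGA, while reads were handled with TAIR10. RefSeq extends GAI further beyond its TAIR10 position than RGA, which lowers the share of GAI. In low R/FR at 180 min GAI had 170 and RGA 173 CPM, so their order per length there depends on the lengths used. In cotyledon the sum was highest at 45 min, at 144 CPM per kb in low R/FR against 88.8 in high R/FR. At 180 min it was 81.7 in low R/FR and 79.3 in high R/FR, with overlapping libraries, at 78.4 and 85.1 in low R/FR and 78.8 and 79.7 in high R/FR. Even there its makeup differed, with GAI at 50% of the sum in low R/FR and 33.4% in high R/FR.

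**Figure D4:**
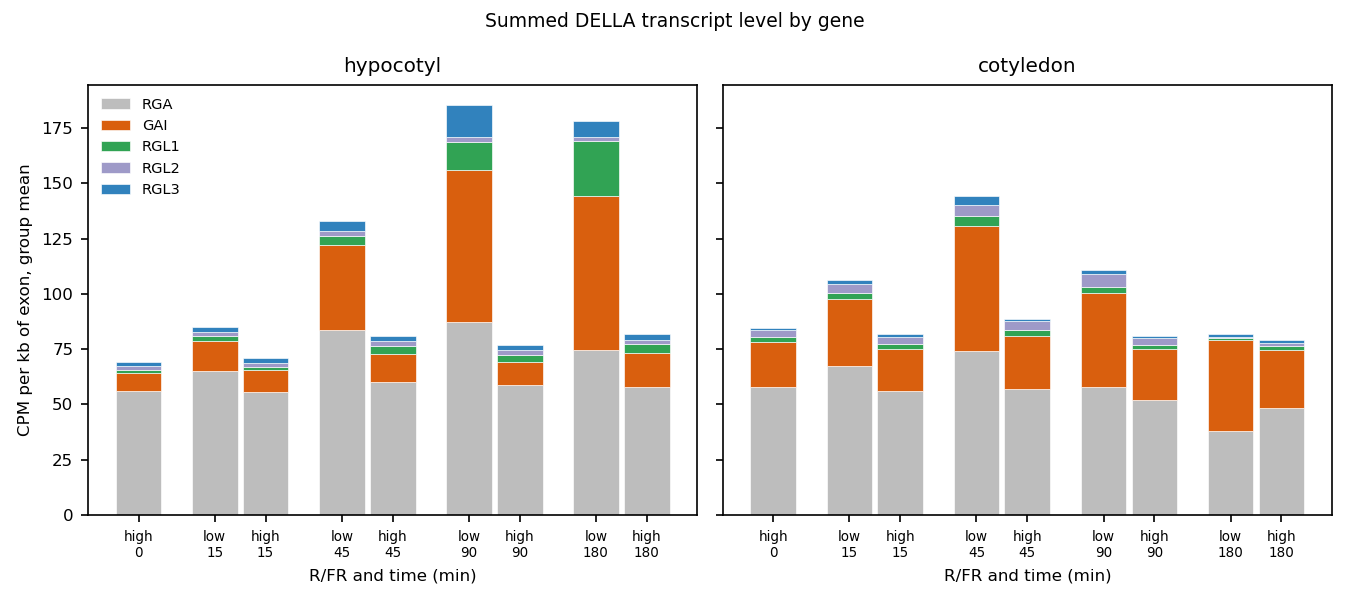
Summed DELLA transcript level in CPM per kb of exon (bars from 0, means of 2 libraries), stacked by gene, for each light and time in hypocotyl (left) and cotyledon (right). In hypocotyl the low R/FR bars reach 185 at 90 min and 178 at 180 min beside 76.7 and 82 in high R/FR, with GAI and RGL1 taking a larger share.

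Receptor transcripts were fewer than DELLA transcripts per length in every group. The 3 GID1 genes summed to 6.74 and 7.47 CPM per kb in hypocotyl in low R/FR at 90 and 180 min, against 13 and 15.1 in high R/FR. In cotyledon they summed to 9.13 and 19.1 in low R/FR, against 9.72 and 12.7 in high R/FR. The ratio of the GID1 sum to the DELLA sum was 0.0408 and 0.0432 in the hypocotyl libraries of low R/FR at 180 min, against 0.174 and 0.196 in those of high R/FR. In cotyledon at that time it was 0.231 and 0.236 in low R/FR, against 0.151 and 0.17 in high R/FR. At 180 min low R/FR thus had the lower ratio in hypocotyl and the higher one in cotyledon, with no overlap of libraries. At 90 min the cotyledon ratio was still the lower one in low R/FR, at 0.0804 and 0.084 against 0.119 and 0.121 in high R/FR. These sums describe transcripts and were not tested as a score. DELLA protein, which the hormone controls by degradation, was not measured.

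**Figure D5:**
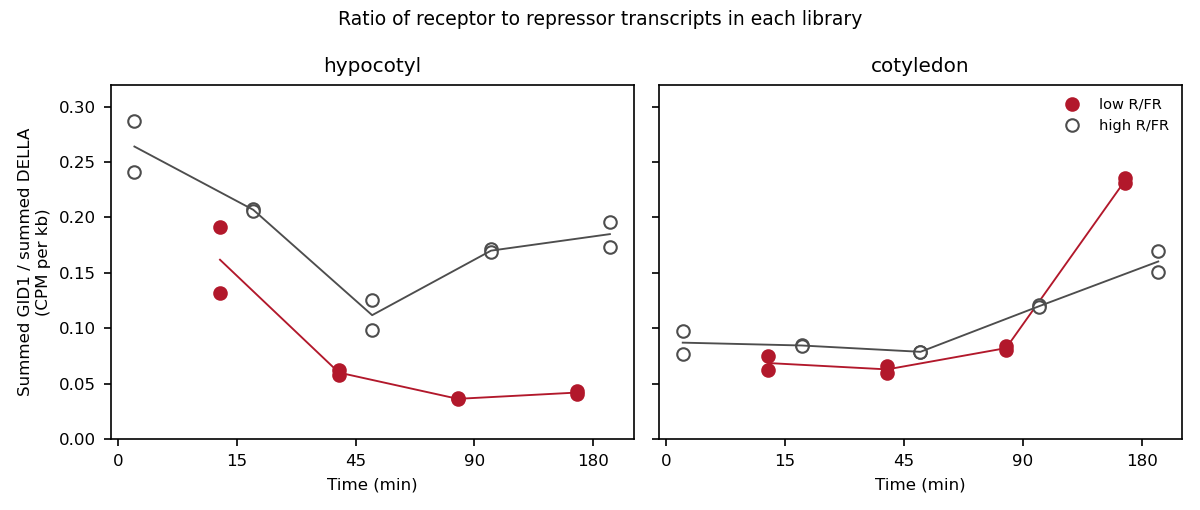
Ratio of summed GID1 to summed DELLA transcript level (both in CPM per kb of exon) in each library against time in min, in low R/FR (red, filled) and high R/FR (grey, open), with lines through means of 2 libraries and evenly spaced times. At 180 min low R/FR lies at 0.0408 to 0.0432 in hypocotyl (left), under high R/FR, and at 0.231 to 0.236 in cotyledon (right), above it.

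Time in high R/FR was compared as well. Between 180 and 0 min, 4 members were called in hypocotyl and 5 in cotyledon, beside 44.9 and 55.6% of all genes, shares near those of all genes. The genes called higher were 22 and 32.1%, and those called lower 22.9 and 23.5%. The median log2 change of all genes was 0.008 in hypocotyl and 0.109 in cotyledon. In hypocotyl GID1B had 0.681 and 0.903 CPM at 180 min and 2.03 and 2.66 CPM at 0 min (-1.58 ± 0.26, adjusted p = 8.31e-06). GID1A was lower at 180 min too (-0.46 ± 0.11, adjusted p = 0.00124), but not by a steady fall. Its means in hypocotyl were 21, 14.6, 6.89, 10.9 and 15.2 CPM at 0, 15, 45, 90 and 180 min. GAI and RGL1 rose there by 0.89 ± 0.12 and 1.4 ± 0.22 (adjusted p = 4.8e-07 and 6.9e-06). In cotyledon GID1A and GID1C rose by 0.76 ± 0.14 and 0.99 ± 0.15 (adjusted p = 3.57e-05 and 1.24e-06), and RGL2 fell, with 3.7 and 3 CPM at 180 min and 8.9 and 5.62 CPM at 0 min (-1.12 ± 0.17, adjusted p = 2.86e-06). The changes of GAI and RGA in cotyledon were small (0.36 ± 0.11 and -0.26 ± 0.09, adjusted p = 0.00969 and 0.0189) and lost their calls without 0 min replicate 1 or 180 min replicate 2, RGA also without 180 min replicate 1. These comparisons share their 180 min libraries with the low over high R/FR comparison at that time.

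The members' levels were also compared between organs. In high R/FR, over the 5 times, 6 of 8 members differed between hypocotyl and cotyledon, beside 80.2% of all genes (40.8% higher in hypocotyl, 39.4% lower), a share near that of all genes. RGL3, GID1A and GID1C were higher in hypocotyl, by 1.07 ± 0.08, 1.03 ± 0.13 and 0.77 ± 0.1 (adjusted p from 3.18e-10 to 8.07e-07). GID1B, GAI and RGL2 were lower in hypocotyl, at -1.19 ± 0.17, -1.03 ± 0.06 and -0.63 ± 0.14 (adjusted p = 3.01e-06, 6.08e-12 and 0.000577). RGL2 turned to 0.01 with scaling by library totals alone, which moved the median of all genes from 0.014 to 0.65. GAI averaged 27.7 ± 6.44 CPM in hypocotyl and 55 ± 6.67 CPM in cotyledon (SD, n = 10 libraries each), with no overlap. In low R/FR, over 4 times, 3 of 8 members differed, beside 64.8% of all genes (35.6% higher in hypocotyl, 29.3% lower), a share below that of all genes. This fit has a single organ term over all times, so organ differences that turn with time are averaged. GID1A, not called, had 14.4 CPM in hypocotyl and 6.76 CPM in cotyledon at 15 min, and 6.15 and 19.8 CPM at 180 min. RGA and RGL3 were higher in hypocotyl (0.42 ± 0.12 and 1.53 ± 0.37, adjusted p = 0.00818 and 0.00229) and GID1B lower (-1.61 ± 0.23, adjusted p = 2.58e-05). With the replicate block the call of RGA was lost (0.31, adjusted p = 0.0575). GAI averaged 116 ± 61.5 CPM in hypocotyl and 103 ± 24.8 CPM in cotyledon in low R/FR (SD, n = 8 libraries each), overlapping ranges (-0.05 ± 0.24, adjusted p = 0.863). That average joins times of opposite order. GAI had 33 CPM in hypocotyl and 73.1 CPM in cotyledon at 15 min, and 93.3 and 138 CPM at 45 min. It had 168 and 103 CPM at 90 min, and 170 and 99.2 CPM at 180 min. Scaling by library totals alone moved the median of all genes from 0.086 to 0.674 in low R/FR, and GAI to 0.54.

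The other gibberellin genes were counted beside the shares of all genes called, which in hypocotyl were 37.6% at 90 min and 63.8% at 180 min. Of 10 tested synthesis genes in hypocotyl, 3 were higher and 3 lower at 90 min, and 2 were higher and 6 lower at 180 min, with medians of -0.01 and -0.5, so that 8 of 10 at 180 min is not far from the share of all genes. GA20OX1 and GA20OX2, whose enzymes make the direct precursors of the active hormone, and GA3OX1, whose enzyme makes the active form, were higher at 90 min, by 3.42 ± 0.16, 2.75 ± 0.16 and 3.02 ± 0.21 (adjusted p from 1.87e-16 to 2.16e-12). GA20OX1 and GA3OX1 were still higher at 180 min (1.82 ± 0.15 and 1.6 ± 0.2, adjusted p = 1.39e-11 and 8.85e-08). KAO2 and KO, which act earlier in the pathway, were lower at 180 min, at -1.49 ± 0.07 and -0.72 ± 0.13 (adjusted p = 4.65e-17 and 2.34e-05). In cotyledon 3.62, 10.8 and 19.5% of all genes were called at 45, 90 and 180 min (2.31, 4.41 and 8.02% higher). The called synthesis genes there were 3 higher ones at each of these times, with medians of 0.21, 0.18 and 0.16. GA20OX3 was among them at all 3 times, with 30 counts over the 2 low R/FR libraries and 0 over the high R/FR pair at 45 min, at least 9.49-fold higher against a floor of 3 counts over the pair. The medians are the same with such genes at their bound. At 90 min it had 71 counts in low R/FR and 1 in high R/FR, and the ratio of CPM was 109 (95% counting interval 19 to 4370).

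Of 5 tested GA2OX genes, whose enzymes inactivate gibberellin, 2 were higher and 1 lower in hypocotyl at 90 and at 180 min, with medians of 0.5 and 0.54. GA2OX8 had 111 counts over the low R/FR libraries and 0 over the high R/FR pair at 180 min, at least 36.3-fold higher against the same floor, and GA2OX2 was lower (-0.71 ± 0.24, adjusted p = 0.0115). In cotyledon GA2OX6 was the called gene at 90 and 180 min, with 49.4 ± 5.14 CPM in low R/FR and 2.82 ± 1.12 CPM in high R/FR at 180 min (SD, n = 2 each; 4.11 ± 0.34, adjusted p = 7.45e-09). GASA genes encode small secreted peptides and are used as markers of the gibberellin response. The 4 listed here were all higher in hypocotyl at 180 min, where 31.2% of all genes were, with a median of 2.14. At 90 min 3 were higher and GASA4 was lower (-0.72 ± 0.18, adjusted p = 0.00249), with a median of 1.43. GASA6 at 180 min stood at 418 ± 2.27 CPM in low R/FR and 108 ± 2.65 CPM in high R/FR (SD, n = 2 each). Its log2 change at that time was 1.95 ± 0.23 (adjusted p = 3.4e-07). In cotyledon 1 of the 4, GASA14, was higher from 45 min on, reaching 3.13 ± 0.28 at 180 min (adjusted p = 5.32e-08).

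Among 7 genes that act on the DELLA protein, 2 were lower in hypocotyl at 90 min, and 1 was higher and 4 lower at 180 min, with medians of -0.14 and -0.23, shares near those of all genes. In cotyledon the F-box gene SLY1 alone was called, and only at 180 min (0.72 ± 0.12, adjusted p = 3.12e-05). SLY1 was also the higher gene in hypocotyl at 180 min (0.29 ± 0.11, adjusted p = 0.0188), where the other F-box gene SNE had 2 counts over the low R/FR libraries and 22 over the high R/FR pair, and the ratio of CPM was 0.0891 (95% counting interval 0.0102 to 0.363). OTS1, a protease that takes SUMO off DELLA proteins, was lower there (-0.5 ± 0.08, adjusted p = 3.52e-06), as was SPY, which modifies them with fucose (-0.24 ± 0.08, adjusted p = 0.00922). Of 7 transcription factors that bind DELLA proteins, 1 was higher and 3 lower in hypocotyl at 180 min (median -0.23), and 3 were higher and 2 lower in cotyledon (median 0.35), beside 63.8 and 19.5% of all genes. BZR1, a brassinosteroid factor, rose at 180 min by 1.5 ± 0.1 in hypocotyl (adjusted p = 4.93e-14) and 0.35 ± 0.1 in cotyledon (adjusted p = 0.0135). SCL3, which opposes DELLA action, was lower in hypocotyl (-0.49 ± 0.11, adjusted p = 0.000372) and higher in cotyledon (1.21 ± 0.12, adjusted p = 3.94e-09). At 90 min 1 of the 7 was higher and 4 were lower in hypocotyl, where 37.6% of all genes were called. PIF3 was lower there (-1.21 ± 0.1, adjusted p = 1.99e-11) and higher in cotyledon at 180 min (1.59 ± 0.11, adjusted p = 7.47e-12). PIF4 was lower in cotyledon at 90 min (-0.9 ± 0.09, adjusted p = 1.05e-08). Of 5 tested genes known as direct DELLA targets, 2 were higher and 2 lower in hypocotyl at 90 min, with a median of -0.07. BHLH137 was among the higher, at 3.12 ± 0.15 (adjusted p = 2.79e-16), and XERICO among the lower, at -0.68 ± 0.13 (adjusted p = 8.29e-05). At 180 min 2 of the 5 were called in hypocotyl, both lower, and in cotyledon 1 was higher and 2 lower, with medians of -0.09 and -0.08.

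The genes with the most similar pattern were taken by Pearson's r of log2 CPM over the 18 group means, each centred on its organ's mean. These are descriptions over points that share libraries' scaling and shade treatment. GAI was most like IAA2, an Aux/IAA repressor of auxin signalling (r = 0.98), and RTFL18 (r = 0.971). RGL1 was most like PAR2 (r = 0.981), a shade-induced regulator, and XTH8 (r = 0.968), a cell wall enzyme gene. RGL3 was most like AT3G62070 (r = 0.951) and IAA1 (r = 0.925), RGA most like SAUR29 (r = 0.957), and RGL2 most like CP1 (r = 0.933). The receptor genes were most like RSH2 (GID1A, r = 0.929), AT1G77680 (GID1B, r = 0.873) and AT4G36840 (GID1C, r = 0.951).

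In the authors' deposited tables of low over high R/FR, the log2 fold changes of the 8 members at the 4 times in both organs, 64 values, lay within 0.06 of those computed here. Of these, 31 passed an adjusted p of 0.05 in both, all with the same sign, and 30 in neither. The other 3 passed in the authors' deposited tables alone: GAI at 15 min in hypocotyl (authors' adjusted p = 0.0198), RGL3 at 15 min in cotyledon (authors' adjusted p = 0.0109) and GID1B at 45 min in hypocotyl (authors' adjusted p = 0.0486).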

How the data were processed

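RNA of 36 samples was sequenced as stranded libraries, per the labels' protocols. Per the submitters' processing notes, reads were handled with TAIR10 as the genome build and with TopHat2 2.0.9, Bowtie, cutadapt 1.2.1, HTSeq 0.5.4p3, limma 3.18.2 and edgeR 3.4.0, in an order not given there; settings are not given in the sources used here. The authors deposited raw read counts per gene, used for every test here, and tables with log2 fold changes and p-values of low over high R/FR for each organ and time, used for positions and for the closing comparison of the report. The 5 HTSeq summary lines of the deposited counts were left out. They put 1.05 to 2.89% of hypocotyl reads and 0.811 to 1.5% of cotyledon reads outside any gene. For every 100 gene counts there were 7.244 to 39 non-unique alignments in hypocotyl, the most in high R/FR 15 min replicate 2, and 9.961 to 20.21 in cotyledon.

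Counts were filtered in edgeR 4.0.16 (R 4.3.3) at a minimum count of 10 and a minimum total of 15 and scaled by TMM, with factors of 1.1851 to 1.2898 in hypocotyl and 0.7674 to 0.8542 in cotyledon. A robust quasi-likelihood fit gave 18 groups 1 mean each over 36 libraries, with 18 residual and a median of 10.5 prior degrees of freedom. For hypocotyl over cotyledon, separate fits used the 20 libraries of high R/FR and the 16 of low R/FR, with time as a term. Calls rest on an adjusted p under 0.05 (Benjamini-Hochberg, over all genes of each of 20 comparisons). CPM use TMM library sizes, CPM per kb divides by RefSeq exonic length, and a prior count of 2 entered log values for likeness. Intervals and the floor of 3 counts cover counting error only. The fit was tested on simulated data with known changes. Paired libraries of each group differed by a chi-square of 3.755 to 20.82 per degree of freedom, so none was counted as a copy. RefSeq TAIR10.1 genes overlapped the deposited TAIR10 position of all 20064 genes compared. The start or the end was identical for 40.5% of them. The members, the pathway lists and the marker lists were chosen with earlier results of these data known. All 8 members were named, and from each pathway list up to 4 called genes with the smallest p per light comparison, of which some are printed. The likeness rule took the 2 genes with the highest r, at an average log2 CPM of at least 1. Alternatives were DESeq2 1.42.0, limma-voom in limma 3.58.1, RLE scaling, library totals alone, no filter, the replicate block, only the organ's own libraries, and leaving out each library.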

Additional observations from a re-analysis of the deposited data

Results flagged for a closer look

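A response that differs between the organs, or between successive times in an organ, was found by the edgeR quasi-likelihood test of the difference itself. Values are differences of log2 changes of low over high R/FR, hypocotyl minus cotyledon. At 45 min they were -1.27 for GID1A and -1.02 for RGL3. At 90 min they were -1.18 for GID1A, -1.08 for GID1B, 1.8 for GAI, 0.42 for RGA, 1.46 for RGL1, -0.89 for RGL2 and 1.86 for RGL3. At 180 min they were -2.32 for GID1A, -1.02 for GID1C, 1.57 for GAI, 0.7 for RGA, 3.09 for RGL1, 1.79 for RGL2 and 1.68 for RGL3. RGL2 and RGL3 changed sign between times, RGL3 from 45 to 90 min and RGL2 from 90 to 180 min.

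Between successive times in cotyledon, the response of RGL3 differed by -1.02 from 45 to 90 min. From 90 to 180 min the differences there were 1.1 for GID1C, -0.49 for RGA, -2.37 for RGL2 and -1.39 for RGL3. The call of RGA was lost without replicate 1 or 2 of high R/FR or 2 of low R/FR at 180 min, or replicate 1 of either light at 90 min, with values of -0.5 to -0.33. It was lost as well with library totals alone (-0.44) and with only the cotyledon libraries in the fit (-0.48). In hypocotyl from 45 to 90 min they were -1.21 for GID1C, 1.1 for GAI, 1.88 for RGL1 and 1.85 for RGL3. From 90 to 180 min they were -0.83 for GID1A, 2.11 for GID1B, 0.59 for GID1C, -0.49 for GAI and -1.57 for RGL3. The call of GID1C was lost without replicate 3 of either light at 180 min, or replicate 1 of high R/FR or 1 or 2 of low R/FR at 90 min, with values of 0.48 to 0.56.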

How the results depend on the processing

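Over the 20 comparisons, 1033 of 1072 member values kept their direction and their side of the threshold with other tools, scalings, filters or fits, 27 gained a call, 11 lost one and 1 turned: RGL2 in hypocotyl over cotyledon in high R/FR, at 0.01 with library totals alone. Leaving out single libraries kept 1052 of 1120 values on their side, with 16 calls gained, 52 lost and no called value turned. The cause of these changes was not tested. Only the larger relative moves in the count of members called are listed here, also for left-out libraries. Smaller ones are left out, such as from 5 to 6 in cotyledon at 45 min with DESeq2. The count moved in hypocotyl at 15 min to 1 with no filter or DESeq2, and in the organ difference at 45 min to 1 with limma-voom. In the cotyledon change from 45 to 90 min it moved to 0 with limma-voom or only the organ's own libraries. In hypocotyl over cotyledon in low R/FR it moved to 5 with library totals alone. With single libraries left out it ran from 0 to 1 in cotyledon at 15 min (1 with all), 3 to 4 in cotyledon at 45 min (5 with all), 0 to 1 in hypocotyl at 15 min (0 with all), 1 to 2 in the organ difference at 45 min (2 with all), 0 to 1 in the cotyledon change from 45 to 90 min (1 with all), and 3 to 5 in cotyledon high R/FR at 180 over 0 min (5 with all).

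Over all genes, the count called in cotyledon at 15 min was 44, and 67 with DESeq2; it was 25 to 48 with single libraries left out. In hypocotyl at 15 min it was 36, and 74 with no filter, 94 with DESeq2 and 14 with only the organ's own libraries; single libraries left out gave 6, without high R/FR replicate 2, to 456, without high R/FR replicate 1. At 45 min in cotyledon, 728 genes became 432 to 2117 with single libraries left out, the most without low R/FR replicate 1. Left-out libraries likewise gave 359 to 591 against 666 in hypocotyl at 45 min, 2587 to 2681 against 3929 in cotyledon at 180 min, 0 to 54 against 3 and 86 to 474 against 140 in the organ difference at 15 and 45 min, and 264 to 885 against 462 and 626 to 786 against 1053 in the cotyledon changes from 45 to 90 and from 90 to 180 min. Library totals alone moved the higher share of calls in cotyledon at 180 min from 41.1 to 57.9%, in the organ difference at 90 min from 57.3 to 46.9%, and in hypocotyl over cotyledon from 50.9 to 80.2% in high R/FR and from 54.8 to 81.3% in low R/FR.

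Replicate numbers were not taken to pair the samples: deviations of same-numbered libraries correlated at -0.0262 to 0.0733 between lights (5 pairs of groups) and at 0.0538 to 0.14 between organs, over 0.1 in 4 of 7 pairs of groups. In the fit of all groups, the replicate block was a term for the replicate number over all times and organs. It does not model samples that belong together within a single time. With this block, the members called were 0, 3, 7 and 6 in hypocotyl and 1, 5, 5 and 4 in cotyledon at 15, 45, 90 and 180 min, as without it. Genes called in cotyledon at 15 min were 70, and GID1A gained a call in the hypocotyl change from 45 to 90 min (-0.49). For hypocotyl over cotyledon the block combined time and replicate number, and RGA in low R/FR lost its call (0.31). Depth limits GID1B most, and with 2 libraries per group a lone library decides several calls.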

Other observations

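Across the 18 group means, centred on the organ, GAI varied most closely with RGL3 (Pearson's r = 0.884) and RGL1 (r = 0.822) among the DELLA genes, and least with RGL2 (r = 0.126). GID1C ran opposite to RGA (r = -0.895) and to RGL2 (r = -0.791), and GID1B opposite to RGL3 (r = -0.809). Among the receptors, GID1C was alike to GID1A (r = 0.581) and GID1B (r = 0.563), while GID1A and GID1B stood at 0.224. The groups share scaling, light and time of day, so these values are descriptions with no test.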
